A study of Homo sapiens with 18 samples.

Results

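Raising S100A9 in THP-1 cells without drug was examined by setting the 3 libraries of cells that carried an S100A9 lentivirus against the 3 libraries of cells that carried the empty vector, 6 of the 18 libraries of the study. The libraries were assigned by their titles alone, and the comparison covered all 15403 genes with enough counts to test. THP-1 is an established human monocytic leukemia line. The groups were, first, THP-1 cells transduced with the S100A9 overexpression lentivirus and kept without drug ("overexpressing cells") and, second, THP-1 cells transduced with the empty lentiviral vector and kept without drug ("empty vector cells"). Both groups carried a lentivirus and had been selected in puromycin (2 µg/mL, from 48 hours after transduction, for 24 hours or longer). A second pair of groups, the same lines with either vector after 36 hours in 1 µM Adavivint, 3 libraries each, was used to estimate the spread and to compare the effect of the vector with and without drug. Adavivint, also called lorecivivint, is a drug that acts on CLK and DYRK1A kinases and lowers Wnt signalling. The labels do not name the promoter of the vector, nor say whether the cells were pools or clones or whether replicates were separate transductions or cultures, so the p-values reflect how far these libraries spread, and that spread may be technical.

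S100A9 is a small calcium-binding protein that monocytes and neutrophils hold in their cytoplasm as a complex with S100A8, called calprotectin. Once released, the complex acts on the receptors TLR4, AGER (RAGE), CD33 and BSG. Of these TLR4 acts through MyD88 and IRAK kinases on NF-kB, the pathway that switches on inflammatory genes. In myeloid cells S100A9 also binds microtubules and the NADPH oxidase. Level here means RNA in CPM, counts per 1000000 of the scaled library total, and a gene is said to have risen or fallen where edgeR's quasi-likelihood test gave an adjusted p below 0.05 (Benjamini-Hochberg over all genes tested). In such bulk samples fewer cells of a type and less RNA per cell cannot be told apart.

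The empty vector libraries did not lie together. Total counts per library were 49991302, 84409062 and 62313488 in overexpressing cells and 61448663, 49722581 and 49757354 in empty vector cells. On the first principal component, which held 52.9% of the variance among these 6 libraries, the overexpression libraries lay at 15.3, 18.0 and 17.4, while empty vector 1, 2 and 3 lay at -28.7, -15.0 and -7.12. Empty vector 1 was the library farthest from the overexpressing cells in 64.4% of the genes that rose and in 81.3% of those that fell, against 20.3% and 11.7% for empty vector 2 and 15.2% and 6.97% for empty vector 3. Without empty vector 1 the genes that changed numbered 3107, against 4307 with it, and 2906 of the 4307 kept their call and direction. What sets this library apart was not tested. Some results that rest on it are given with and without it, and other fold changes are given with it alone. Markers of the labelled cell type were present: 16 monocytic genes summed to 2130 to 2270 CPM in overexpressing cells and 2140 to 2220 CPM in empty vector cells. Markers of erythroid cells and platelets stayed at or below 1.28 CPM in sum and those of stromal and endothelial cells at or below 1.36 CPM in each library.

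S100A9 (ENSG00000163220; chromosome 1, 153357854 to 153361027 on the plus strand in GENCODE 29, GRCh38) had 1496, 2444 and 1659 counts in overexpressing cells, against 563, 194 and 305 in empty vector cells. This corresponded to 29.1, 28.8 and 26.3 CPM in overexpressing cells, against 9.38, 3.85 and 5.91 CPM in empty vector cells. Each overexpression library lay above each empty vector library; among the empty vector libraries the first was the highest and the second the lowest. The rise was 4.36-fold (log2 fold change 2.13, SE 0.20, adjusted p = 3.2e-05). Counts per gene do not separate transcripts of the vector from those of the endogenous gene. S100A8, the partner of S100A9 in calprotectin, had 14, 53 and 19 counts in overexpressing cells, against 65, 40 and 30 in empty vector cells. The groups overlapped, as counts and as CPM, and S100A8 was 1.99-fold lower (adjusted p = 0.0256), at 0.400 ± 0.196 CPM in overexpressing cells and 0.819 ± 0.252 CPM in empty vector cells. S100A8 did not pass without overexpression 1, overexpression 3 or empty vector 1 (adjusted p 0.081 to 0.126). S100A12 had no count in the 3 overexpression libraries, against 10, 0 and 5 counts in the empty vector libraries, and was too low to test.

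Other genes of the S100 list moved both ways. Of 13 genes of the list tested, S100A9 included, 3 rose and 3 fell; over all genes tested 14.9% rose and 13% fell. Beside S100A9, S100A13 was among the genes that rose (1.50-fold), and S100A4 and S100A6 fell 1.23-fold and 1.19-fold. Among the receptors of extracellular S100A8/A9, AGER rose 1.32-fold to 8.49 ± 0.377 CPM in overexpressing cells, against 6.43 ± 1.20 CPM in empty vector cells (adjusted p = 0.0218). AGER did not pass without overexpression 2, overexpression 3 or empty vector 1 (adjusted p 0.0658 to 0.0678). BSG, the receptor known as basigin, fell 1.16-fold. The log2 difference of TLR4 was -0.089 (SE 0.065, adjusted p = 0.338), that of CD33 was 0.051 (adjusted p = 0.584) and that of CD14 was -0.04 (adjusted p = 0.948). Of the 12 adaptors and kinases tested, IRAK2, IRAK4 and TAB2 rose by 0.35, 0.27 and 0.19 on the log2 scale, while MYD88, TIRAP and IRAK1 had log2 changes of -0.29, -0.22 and -0.29 and fell. MYD88 did not pass without overexpression 3 (adjusted p = 0.0594). TIRAP did not pass without overexpression 1, overexpression 3, empty vector 1 or empty vector 2 (adjusted p 0.0505 to 0.138). Each change named among these receptors, adaptors and kinases was under 1.5-fold.

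Across the transcriptome many genes moved by small amounts. Of 15403 genes 2297 rose and 2010 fell, and the median change of these 4307 genes was 1.26-fold in either direction. The number of genes that changed was 2735 without overexpression 2, the library with the highest total, and 3107 without empty vector 1. Changes of less than 1.5-fold made up 82.4% of them. A change of at least 2-fold was reached by 195 genes that rose and 88 that fell, 1.27% and 0.571% of the genes tested (1.84% in either direction), and 98 genes changed at least 4-fold. Most of these 88 and of these 98 lay outside the rule for the genes named as largest. That rule asks for 5 CPM in the higher group, no overlap and a gene symbol, without readthrough names. By it the fall ranked 15, TP53INP2, had a log2 fold change of -0.97. The rise ranked 5, MYO3B, had 1.73, and the fall ranked 2, SPRY4, -1.58. The 3 libraries of 1 group all lay above the 3 of the other in 4116 of the 4307 genes that changed (95.6%), while over all genes tested 22.3% lay wholly above and 19% wholly below the empty vector libraries. The median log2 difference over all genes tested was 0.0165. The plot of log2 fold change against level shows these changes.

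**Figure D1:**
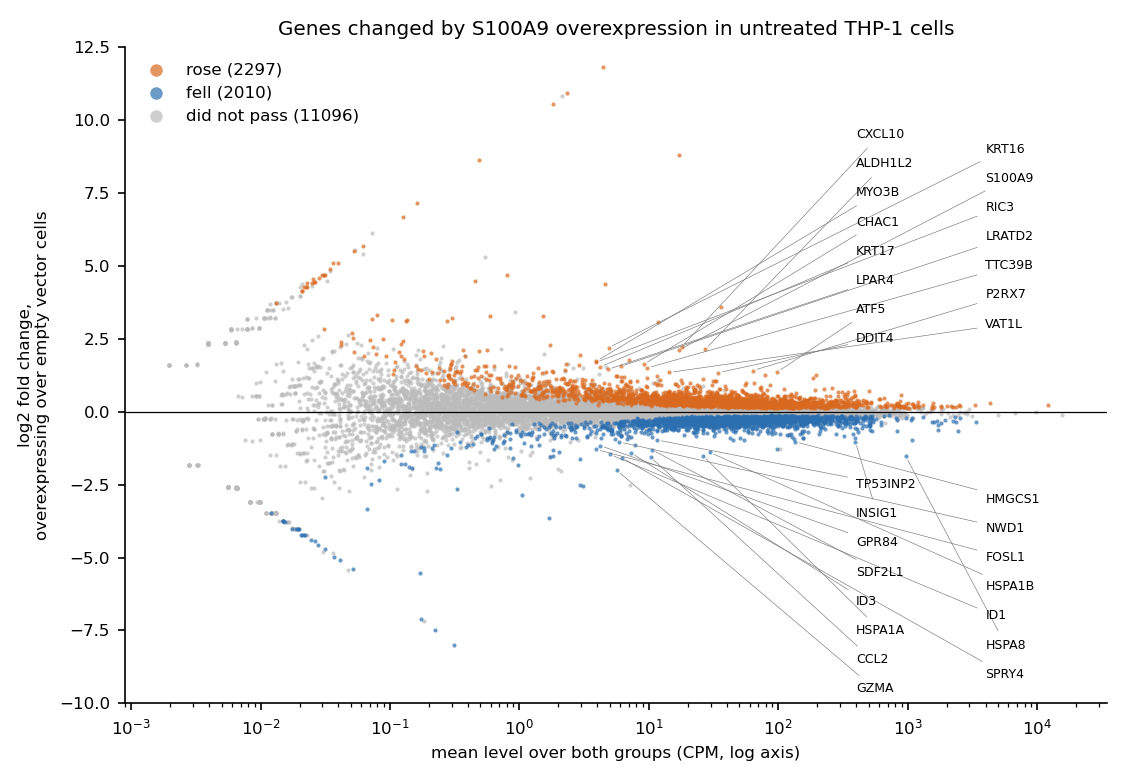
Log2 fold change (overexpressing over empty vector cells) of each gene tested against its mean level in CPM over both groups, on a log axis. Orange points are the 2297 genes that rose, blue points the 2010 that fell and grey points the others; the named genes are those with the largest changes by the rule given under processing. Points beyond 8 on the y axis are genes with no or almost no count in 1 group.

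The genes with the largest rises at 5 CPM or more were of several kinds. CXCL10, an interferon-induced chemokine, had 28.3, 30.1 and 30.2 CPM in overexpressing cells, against 13.2, 2.03 and 3.58 CPM in empty vector cells. In these values the empty vector libraries spread widely, and the log2 fold change of 2.22 was 3.40 without empty vector 1. ALDH1L2, a mitochondrial folate enzyme, had 43.3, 46.4 and 43.3 CPM in overexpressing cells, against 6.90, 10.8 and 12.7 CPM in empty vector cells, a 4.39-fold rise. MYO3B, an unconventional myosin, rose 3.32-fold, RIC3, a chaperone of acetylcholine receptors, 3.22-fold, and LRATD2 2.93-fold. TTC39B rose 2.83-fold, the lysophosphatidic acid receptor gene LPAR4 2.73-fold, VAT1L 2.54-fold and the ATP-gated channel gene P2RX7 2.66-fold. LPAR4 did not pass without overexpression 2, overexpression 3 or empty vector 1 (adjusted p 0.0507 to 0.0959). The remaining members of this set, CHAC1, ATF5, DDIT4, KRT16 and KRT17, are described with their groups. The largest falls were in GZMA, SPRY4, CCL2, the heat shock genes HSPA8, HSPA1A and HSPA1B, ID1, ID3, SDF2L1, FOSL1, GPR84, NWD1, INSIG1, HMGCS1 and TP53INP2. GPR84, a receptor for medium-chain fatty acids on myeloid cells, had 2.41, 2.82 and 2.57 CPM in overexpressing cells, against 10.0, 4.33 and 3.10 CPM in empty vector cells. It was 2.24-fold lower without overlap between the groups, and the log2 fold change of -1.16 was -0.51 without empty vector 1. TP53INP2, an autophagy factor, fell 1.96-fold and NWD1 2.05-fold.

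**Figure D2:**
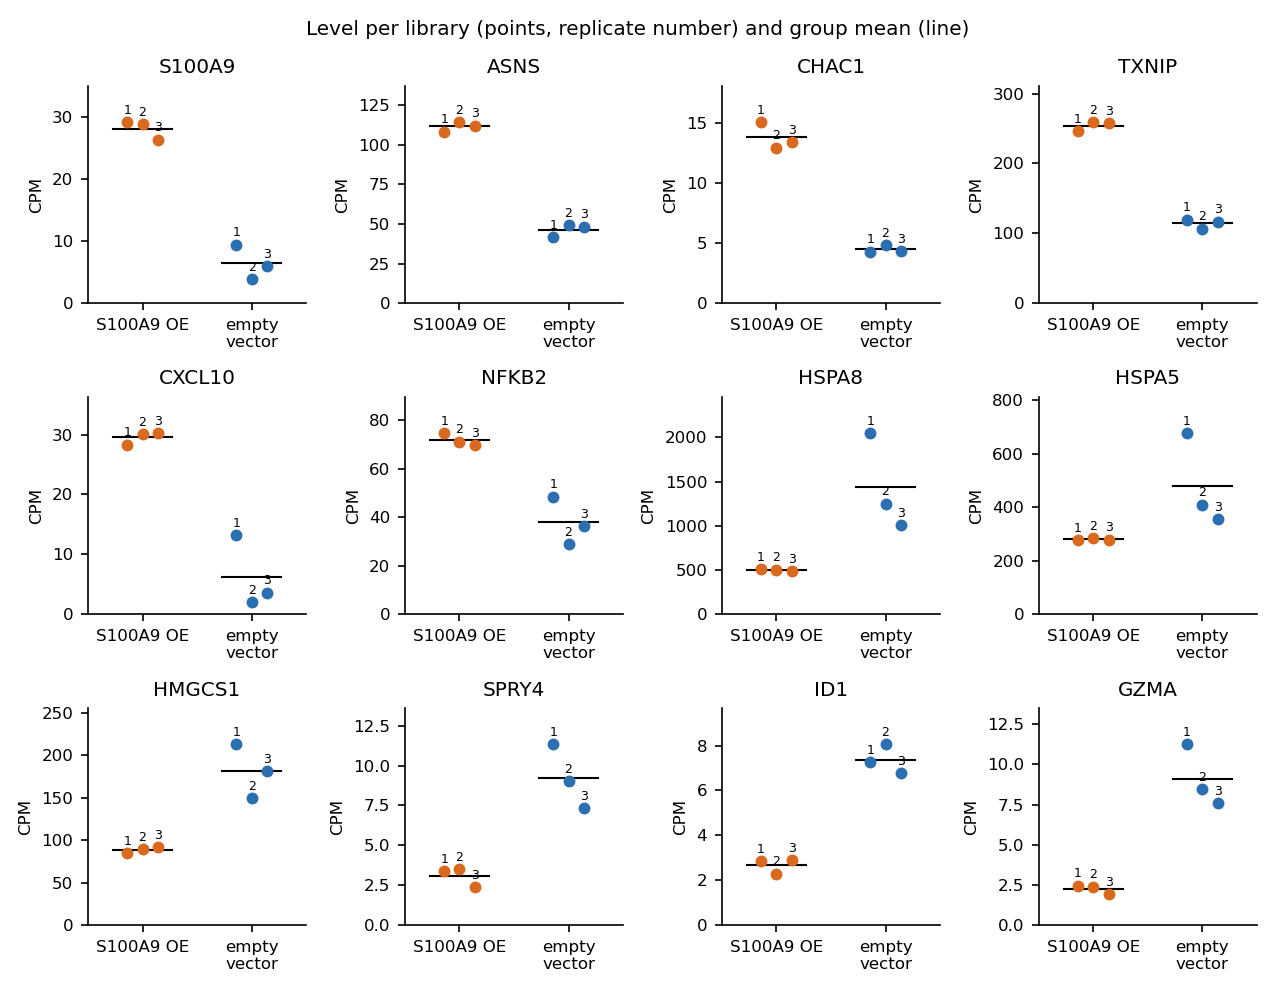
Level in CPM of 12 genes in each library, overexpressing cells (3 orange points) left of empty vector cells (3 blue points, labelled by replicate number), with the group mean as a line and axes from 0. In the 12 panels the groups do not overlap, and in some of them, such as HSPA8 and HSPA5, empty vector 1 is the library farthest from the overexpressing cells.

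Genes of the ATF4 pathway rose together. When amino acids run short or proteins misfold, kinases such as GCN2 (EIF2AK4) and PERK (EIF2AK3) phosphorylate the initiation factor eIF2, general translation slows, and the factor ATF4 is made and switches on genes for amino acid supply. Of 28 regulators and effectors tested 23 rose and none fell, with a median log2 fold change of 0.43. Without empty vector 1, 21 rose, with a median of 0.39. Some members hold the composite element to which ATF4 and C/EBP factors bind, searched as TGATGNAA on both strands in the 250 bases before the RefSeq start (GRCh38.p14). It was present before 4 of 23 (17.4%) of the list with a promoter in the RefSeq table, and before 1061 of 27305 (3.89%) of all genes in that table. The promoters of ASNS and CHAC1 are shown because both genes rose more than 2-fold and carry a match, in capitals. They lie at chr7:97872409-97872658 (minus strand) and chr15:40953221-40953470 (plus strand), each written 5′ to 3′ along its own gene, and a match is a description of the letters, not a binding site.
ASNS: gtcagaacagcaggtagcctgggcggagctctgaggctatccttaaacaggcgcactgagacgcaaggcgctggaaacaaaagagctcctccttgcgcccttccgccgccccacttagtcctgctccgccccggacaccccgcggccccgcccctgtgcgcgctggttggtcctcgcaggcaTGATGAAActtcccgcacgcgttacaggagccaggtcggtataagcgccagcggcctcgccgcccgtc
CHAC1: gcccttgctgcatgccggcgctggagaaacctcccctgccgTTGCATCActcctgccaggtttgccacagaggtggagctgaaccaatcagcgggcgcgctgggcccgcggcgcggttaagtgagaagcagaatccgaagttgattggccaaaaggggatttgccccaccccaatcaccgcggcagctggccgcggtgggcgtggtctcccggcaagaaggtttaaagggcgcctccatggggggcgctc
The match before ASNS starts 68 bases upstream of the start on the gene's strand, and that before CHAC1 ends 202 bases upstream on the opposite strand.

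Among the factors the rises differed in size. ATF4 had 466, 459 and 441 CPM in overexpressing cells, against 368, 411 and 358 CPM in empty vector cells, a 1.20-fold rise (adjusted p = 0.0032). ATF5, a related factor, had 146, 143 and 137 CPM in overexpressing cells, against 58.1, 56.3 and 50.9 CPM in empty vector cells, a 2.57-fold rise. DDIT3 (CHOP), the factor linked to death after long stress, rose 1.90-fold, CEBPG, a partner of ATF4, 1.31-fold and ATF3 1.34-fold. ATF3 did not pass without overexpression 2, empty vector 1 or empty vector 3 (adjusted p 0.0626 to 0.109). Of the kinases of eIF2, EIF2AK2 (PKR) rose 1.14-fold, while EIF2AK1, EIF2AK3 and EIF2AK4 had log2 differences of -0.095, -0.052 and 0.02 (adjusted p 0.119, 0.594 and 0.812) and did not pass. EIF2AK2 did not pass without overexpression 2 or overexpression 3 (adjusted p 0.0554 to 0.0745).

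Among the effectors, CHAC1, which degrades glutathione, had 15.1, 12.9 and 13.4 CPM in overexpressing cells, against 4.28, 4.83 and 4.32 CPM in empty vector cells. DDIT4 (REDD1), an inhibitor of mTORC1, had 52.1, 47.2 and 49.1 CPM in overexpressing cells, against 15.5, 23.9 and 19.4 CPM in empty vector cells. In both genes the groups were well apart, with rises of 3.08-fold and 2.53-fold. SESN2, another brake on mTORC1, rose 1.61-fold, TRIB3, a pseudokinase that restrains ATF4 and AKT, 1.68-fold, VEGFA 1.67-fold and the translation repressor EIF4EBP1 1.26-fold. STC2 and GDF15, a pair of secreted stress proteins, rose from low levels, with 2.87 ± 0.351 and 0.593 ± 0.299 CPM for STC2 and 0.133 ± 0.0197 and 0.0111 ± 0.0192 CPM for GDF15 in overexpressing and empty vector cells. Without empty vector 1 the log2 fold change of GDF15 was 5.76, against 3.19 with it. Empty vector cells had almost no GDF15 counts, so the size of these fold changes is not well determined. GDF15 was too low to test with the 6 untreated libraries alone. PPP1R15A, the phosphatase subunit that ends the response, was the effector that did not pass (log2 difference 0.095, adjusted p = 0.364).

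Enzymes that make amino acids rose in part. Asparagine synthetase, ASNS, had 108, 114 and 112 CPM in overexpressing cells, against 41.8, 49.2 and 48.4 CPM in empty vector cells. All 3 overexpression libraries lay above the empty vector libraries, which were close to each other, and the rise was 2.41-fold (SE of the log2 fold change 0.064, adjusted p = 1.45e-07). CBS and CTH, which turn homocysteine into cysteine, rose 1.85-fold and 1.73-fold, and the proline enzyme PYCR1 1.55-fold. PYCR3 and OAT, which also serve proline and ornithine, fell 1.52-fold and 1.22-fold. PYCR3 did not pass without overexpression 2 (adjusted p = 0.0501). In all 6 of 17 amino acid enzymes rose and 3 fell (1 without overexpression 2). In serine synthesis and the folate cycle 8 of 17 genes rose and 1 fell (median log2 fold change 0.39). PHGDH, PSAT1 and PSPH, the steps from 3-phosphoglycerate to serine, rose 1.48-fold, 1.63-fold and 1.42-fold. The mitochondrial enzymes SHMT2, MTHFD2 and MTHFD1L rose 1.32-fold, 1.59-fold and 1.32-fold, whereas the cytosolic MTHFD1 had a log2 difference of -0.056 (adjusted p = 0.638).

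Carriers of amino acids were listed by membrane. Of 19 carriers of the plasma membrane 6 rose and 1 fell. SLC7A11, the cystine importer, had 76.2, 88.4 and 92.9 CPM in overexpressing cells, against 37.8, 49.6 and 43.7 CPM in empty vector cells, a 1.97-fold rise with no overlap. SLC38A2 and SLC38A1, carriers of small neutral amino acids, rose 1.27-fold and 1.24-fold, while SLC43A2 fell 1.57-fold. Of 10 carriers of organelles none rose and 6 fell, among them SLC25A44, which carries branched-chain amino acids, by 1.40-fold, the glutamate carrier SLC25A22 by 1.42-fold and SLC25A39, which carries glutathione, by 1.29-fold.

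Enzymes that load tRNA were listed by compartment. Of 21 cytosolic synthetases 14 rose and 3 fell (1 without overexpression 2 or empty vector 1; median log2 fold change 0.33). Of 17 mitochondrial synthetases 1 rose and 2 fell (1 without overexpression 3 or empty vector 1 and 4 without empty vector 3; median -0.045). CARS1, for cysteine, had 157, 147 and 148 CPM in overexpressing cells, against 95.8, 104 and 97.5 CPM in empty vector cells, a 1.52-fold rise, and the groups did not overlap. WARS1, which loads tryptophan and is also induced by interferon, rose 1.61-fold, SARS1 1.56-fold, AARS1 1.52-fold and GARS1 1.35-fold. FARSA, a subunit of the phenylalanine enzyme, fell 1.31-fold. The letters TGATGNAA were present before 3 of 16 (18.8%) of the cytosolic synthetase genes with a promoter in the table, and those genes, AARS1, GARS1 and IARS1, were among those that rose.

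**Figure D3:**
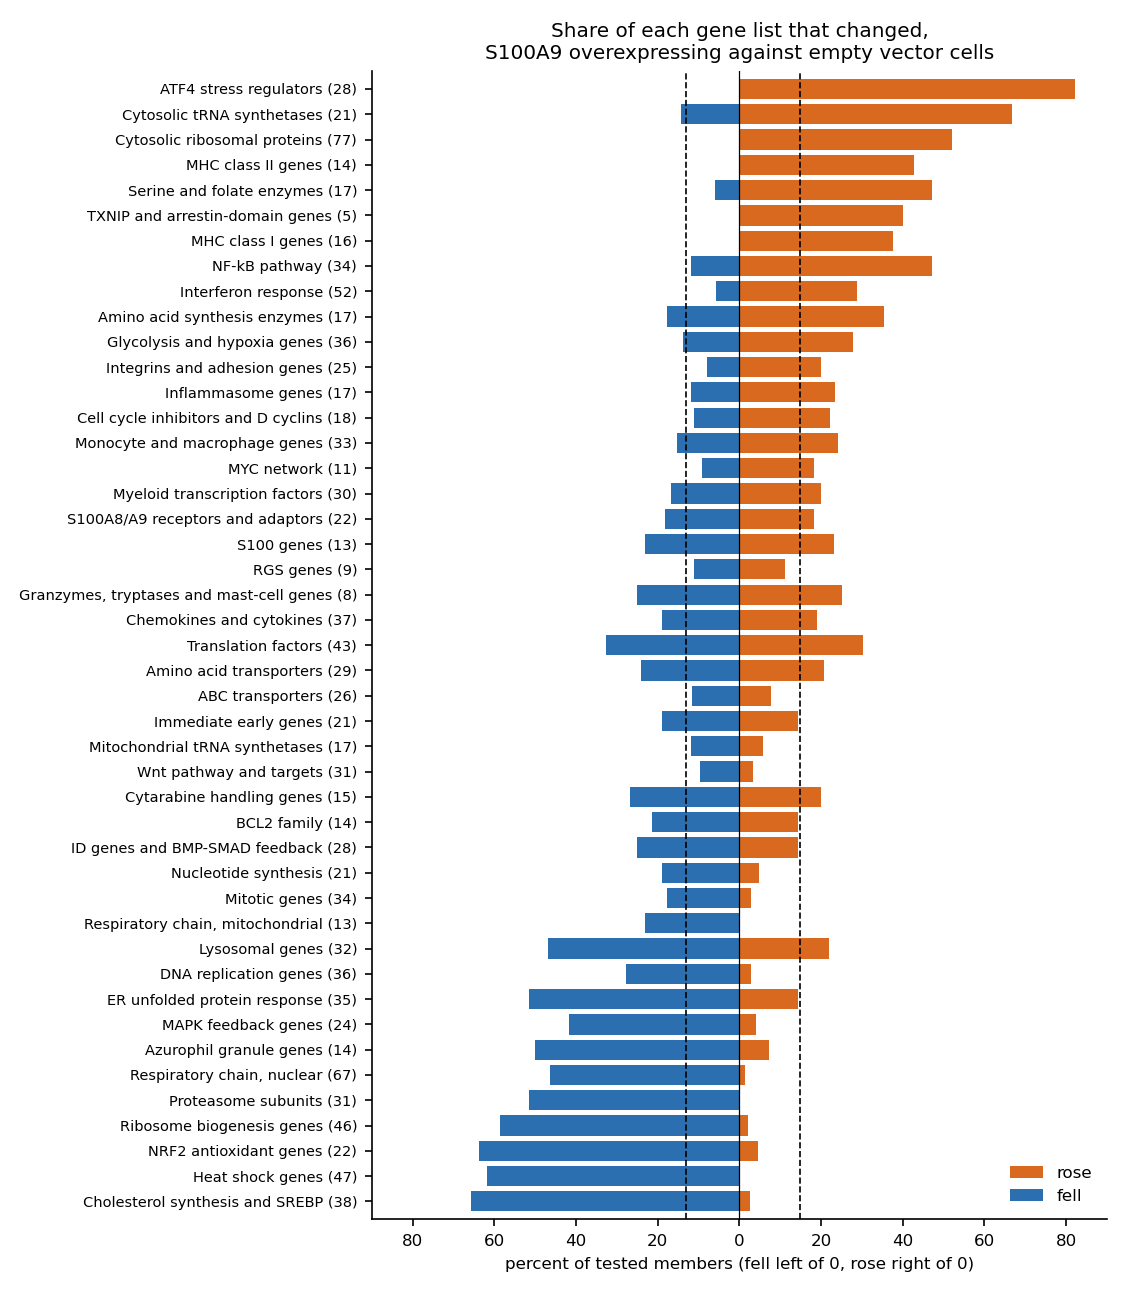
Percent of the tested members of each gene list that rose (orange, right) or fell (blue, left) in overexpressing cells relative to empty vector cells, with the number tested beside the name. Dashed lines mark the shares over all genes tested, 14.9% risen and 13% fallen.

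Genes that respond to glucose and oxygen supply rose in part. TXNIP, an alpha-arrestin that blocks glucose uptake and binds thioredoxin, had 246, 259 and 257 CPM in overexpressing cells, against 119, 107 and 117 CPM in empty vector cells. Its relative ARRDC4 had 8.45, 8.78 and 9.68 CPM in overexpressing cells, against 4.55, 3.26 and 4.09 CPM in empty vector cells. Neither gene showed overlap, with rises of 2.23-fold and 2.26-fold, while the other 3 family members tested did not pass. MXI1, which opposes MYC at its sites, rose 1.60-fold, while the log2 difference of MYC was -0.12 (adjusted p = 0.371). Of 13 genes of the hypoxia response 7 rose and none fell. They included P4HA1, a collagen hydroxylase (1.52-fold), PDK1, which closes the entry of pyruvate to mitochondria (1.49-fold), the mitophagy receptors BNIP3 (1.38-fold) and BNIP3L (1.49-fold), and ANKRD37 (1.88-fold). The oxygen-regulated factor subunit HIF1A had a log2 difference of 0.079 (adjusted p = 0.322). HIF1A passed without overexpression 1 (log2 difference 0.14, adjusted p = 0.0422). Of 23 glucose transport and glycolysis genes 3 rose and 5 fell, beside 14.9% risen and 13% fallen over all genes tested. Their median log2 fold change was -0.12. Those that rose were ALDOC (1.79-fold), ENO2 (1.76-fold) and PFKFB4 (1.34-fold). Among those that fell were PKM (1.31-fold), PGAM1 (1.29-fold) and the lactate exporter SLC16A3 (1.45-fold). ENO2 did not pass without overexpression 1, empty vector 1 or empty vector 2 (adjusted p 0.0514 to 0.0717). The count of fallen glycolysis and hypoxia genes was 10 without empty vector 3, against 5 with it.

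Chaperone genes fell. The heat shock response is run by the factor HSF1, which raises chaperones when unfolded protein builds up. Of 47 heat shock genes none rose and 29 fell, with a median log2 fold change of -0.24. HSPA8, the constitutive HSP70, had 506, 501 and 484 CPM in overexpressing cells, against 2048, 1249 and 1005 CPM in empty vector cells. The overexpression libraries were close together, and the empty vector libraries lay above them and apart from each other, with empty vector 1 the highest. Without empty vector 1 the log2 fold change of HSPA8 was -1.18, against -1.53 with it. HSPA1A had 14.3, 13.4 and 13.1 CPM in overexpressing cells, against 46.3, 36.8 and 33.3 CPM in empty vector cells. HSPA1A and HSPA1B are nearly identical, and their reads can be shared between them; they were 2.86-fold and 2.63-fold lower. The cochaperones DNAJA1, DNAJB1 and BAG3 fell 1.87-fold, 1.45-fold and 1.57-fold, HSPH1 1.86-fold, HSP90AA1 1.58-fold and its activator AHSA1 1.68-fold. HSPE1, the small partner of the mitochondrial HSP60, fell 1.70-fold and 5 subunits of the cytosolic TRiC chaperonin fell, by up to 1.32-fold (CCT6A). HSF1 and HSF2 had log2 differences of -0.13 and 0.17 (adjusted p = 0.0781 and 0.0952).

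The promoter of HSPA8 (chr11:123062137-123062386, minus strand, GRCh38.p14) is shown because the gene had one of the largest falls and its 250 upstream bases hold the heat shock element, 3 alternating blocks of GAA and TTC, searched on both strands as GAA, TTC and GAA or TTC, GAA and TTC with any 2 bases between neighbouring blocks. Matches are in capitals, at 2 separate sites, each of which matches on both strands.
HSPA8: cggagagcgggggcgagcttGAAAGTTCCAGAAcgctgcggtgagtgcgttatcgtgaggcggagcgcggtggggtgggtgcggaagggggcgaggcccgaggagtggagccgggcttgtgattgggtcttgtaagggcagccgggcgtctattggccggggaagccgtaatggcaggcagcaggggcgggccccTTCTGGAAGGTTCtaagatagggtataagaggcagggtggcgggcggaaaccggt
Such a match was present before 8 of 41 (19.5%) of the heat shock genes with a promoter in the RefSeq table and before 152 of 27305 (0.557%) of all genes. Of the 8 members with a match 6 fell and none rose.

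The chaperone genes stood at different levels in the 3 empty vector libraries. Relative to the mean of the overexpression libraries, the median heat shock gene stood at 0.40, 0.22 and 0.12 on the log2 scale in empty vector 1, 2 and 3. Without empty vector 1, 22 of the heat shock genes fell, with a median log2 fold change of -0.17. The ATF4 genes did not show that order, at -0.48, -0.37 and -0.41. The plot of list medians by library shows both patterns.

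**Figure D4:**
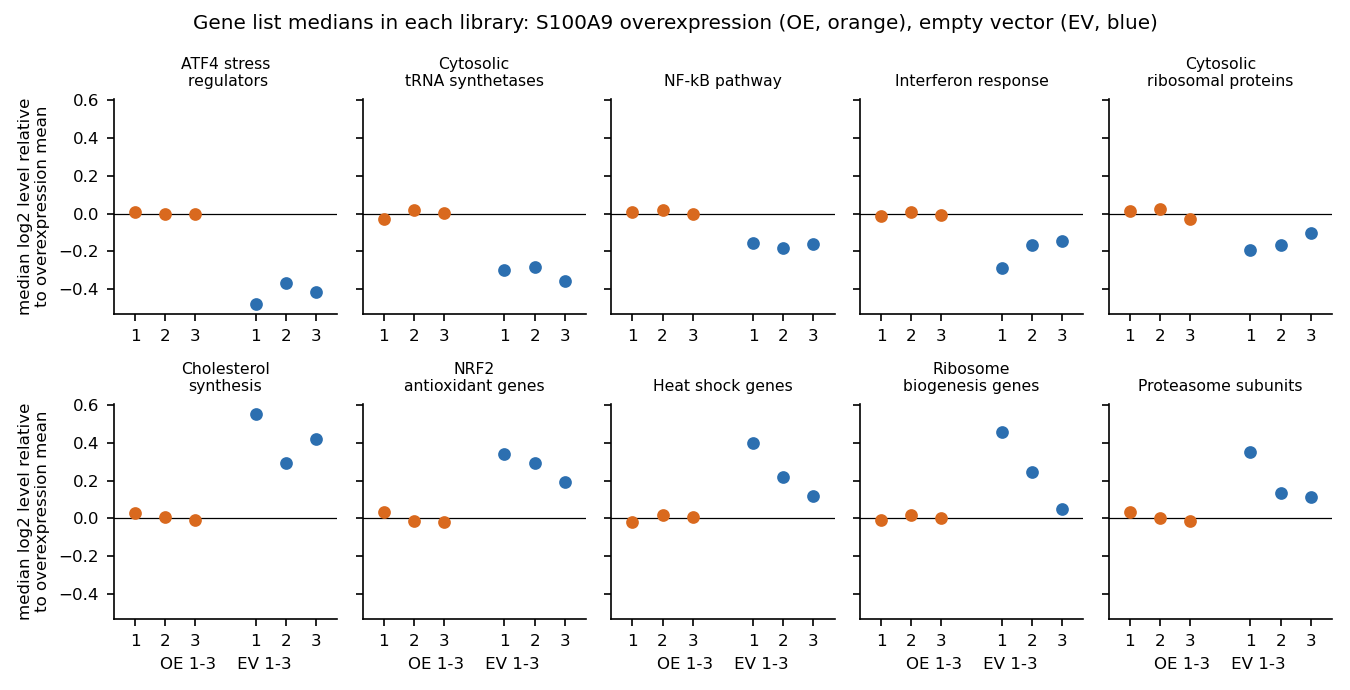
Median over the tested members of 10 gene lists of the log2 level (CPM plus 0.5) in each library, relative to the mean of the 3 overexpression libraries, which are drawn left of the empty vector libraries. Heat shock, ribosome biogenesis and proteasome genes stand highest in empty vector 1 and lowest in empty vector 3, whereas the ATF4 genes lie at a similar distance in the 3 empty vector libraries.

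Genes for folding in the endoplasmic reticulum fell as well. Of 17 chaperones and folding enzymes 13 fell and 1 rose. HSPA5 (BiP), the main HSP70 of this compartment, had 277, 284 and 278 CPM in overexpressing cells, against 677, 409 and 354 CPM in empty vector cells. SDF2L1, a cofactor of BiP, had 6.62, 5.85 and 5.84 CPM in overexpressing cells, against 21.2, 12.8 and 11.0 CPM in empty vector cells. The groups did not overlap in either gene, which fell 1.72-fold and 2.46-fold. MANF fell 1.96-fold, PDIA4 1.71-fold, HYOU1 1.58-fold and the calcium-binding chaperone CALR 1.54-fold. These falls were smaller without empty vector 1. The log2 fold changes of HSPA5, MANF and CALR were then -0.448, -0.65 and -0.415, against -0.78, -0.969 and -0.627 with it. ERO1B, an oxidase that makes disulfide bonds, was the member that rose (1.38-fold). Of the sensors, ERN1 (IRE1) and ATF6 rose 1.23-fold and 1.18-fold, and XBP1, the factor that IRE1 activates by splicing, had a log2 difference of -0.12 (adjusted p = 0.447). XBP1 passed without empty vector 3 (log2 difference -0.26, adjusted p = 0.0321). Without empty vector 1, 17 of the 35 genes of this response fell and 6 rose, against 18 and 5 with it. The number that rose was 3 without overexpression 2, overexpression 3, empty vector 2 or empty vector 3.

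Subunits of the proteasome, which degrades unfolded protein, fell in 16 of 31 cases and none rose. PSMD1 fell 1.40-fold, PSMD11 1.34-fold and PSMB2 1.30-fold. The number that fell was 10 without overexpression 2, 9 without overexpression 3 and 9 without empty vector 1. The median log2 fold change was -0.12 without empty vector 1, against -0.21 with it.

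Cholesterol synthesis genes fell at early and late steps. Its genes are switched on by SREBP2 (SREBF2) when sterols are low, and INSIG1 and SCAP hold that factor back or carry it. Of 20 enzymes 17 fell and none rose, with a median log2 fold change of -0.71. HMGCS1, an early step, had 84.9, 89.3 and 91.6 CPM in overexpressing cells, against 213, 149 and 181 CPM in empty vector cells. It fell without overlap between the groups, 2.04-fold. Later steps fell too: IDI1 1.94-fold, MVD 1.87-fold, SQLE 1.71-fold, LSS 1.67-fold, MSMO1 1.95-fold and DHCR7 1.72-fold. INSIG1 fell 2.04-fold. SREBF2 had a log2 difference of 0.013 (adjusted p = 0.854), while SREBF1 rose 1.13-fold. SREBF1 did not pass without overexpression 1, overexpression 3, empty vector 2 or empty vector 3 (adjusted p 0.0517 to 0.0876). Of 8 fatty acid enzymes 6 fell, FASN by 1.86-fold and SCD by 1.26-fold. In the fit with empty vector 1 left out, 24 members fell, against 25 with it.

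Genes of the NRF2 (NFE2L2) antioxidant list fell in 14 of 22 cases and rose in 1. Of the 19 targets among them 13 fell and 1 rose, and of the 3 regulators 1 fell. The cystine importer SLC7A11, described with the carriers, rose and was not in this list. NQO1, a quinone reductase, had 17.7, 18.1 and 18.5 CPM in overexpressing cells, against 31.5, 29.2 and 26.6 CPM in empty vector cells. HMOX1, which degrades heme, had 5.41, 4.24 and 4.31 CPM in overexpressing cells, against 8.00, 10.6 and 8.35 CPM in empty vector cells. The groups did not overlap in either gene, which fell 1.61-fold and 1.94-fold. OSGIN1, SRXN1 and TXNRD1 fell 2.59-fold, 1.45-fold and 1.33-fold, and the pentose phosphate enzyme PGD 1.31-fold. NFE2L2 itself had a log2 difference of 0.089 (adjusted p = 0.128). NFE2L2 passed without empty vector 1 (log2 difference 0.12, adjusted p = 0.0385). The ferritin chains went apart, with FTL 1.23-fold lower and FTH1 1.13-fold higher. FTH1 did not pass without overexpression 1, overexpression 2, empty vector 2 or empty vector 3 (adjusted p 0.0905 to 0.108). With empty vector 1 left out the counts were 14 lower and 2 higher.

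The NF-kB pathway, which receives signals from TLR4, rose in 16 of 34 genes and fell in 4 (2 without overexpression 3 or empty vector 1). The median log2 fold change was 0.17. Among the subunits those of the noncanonical branch moved most. NFKB2 had 74.8, 71.2 and 69.7 CPM in overexpressing cells, against 48.5, 28.9 and 36.4 CPM in empty vector cells. RELB had 24.2, 24.5 and 22.9 CPM in overexpressing cells, against 15.7, 8.28 and 9.92 CPM in empty vector cells. They rose 1.89-fold and 2.10-fold, and in both the empty vector libraries, with empty vector 1 the highest, lay below the overexpression libraries. REL rose 1.21-fold, RELA fell 1.21-fold, and the log2 difference of NFKB1 was 0.16 (adjusted p = 0.182). NFKB1 passed without empty vector 1 (log2 difference 0.32, adjusted p = 0.000566). Among the inhibitors of the pathway NFKBIA rose 1.58-fold, TNFAIP3 1.80-fold and CYLD 1.49-fold, whereas TNIP2 fell 1.29-fold. BCL3 and NFKBIZ, which are not plain inhibitors, rose 1.44-fold and 1.35-fold. Among the targets BIRC3, which ubiquitinates RIPK1, rose 2.35-fold, the adhesion molecule ICAM1 1.52-fold, TRAF1 1.58-fold and TNFAIP2 1.29-fold. In the fit with empty vector 1 left out, 18 members rose and 2 fell. The log2 fold changes of RELB and TNFAIP3 were 1.39 and 1.14 in that fit, against 1.07 and 0.847 with all libraries.

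The promoters of NFKB2 (chr10:102395455-102395704, plus strand) and CXCL10 (chr4:76023498-76023747, minus strand; both GRCh38.p14) are shown as examples of genes that rose, with an NF-kB element, GGGA and TTTCC with any 1 base between, in capitals in the first and the core of an interferon response element, GAAA and GAAA with any 2 bases between, in the second.
NFKB2: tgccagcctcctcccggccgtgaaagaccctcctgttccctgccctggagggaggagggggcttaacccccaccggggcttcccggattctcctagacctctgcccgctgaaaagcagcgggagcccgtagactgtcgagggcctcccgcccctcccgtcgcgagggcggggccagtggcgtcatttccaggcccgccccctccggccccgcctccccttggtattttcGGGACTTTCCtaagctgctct
CXCL10: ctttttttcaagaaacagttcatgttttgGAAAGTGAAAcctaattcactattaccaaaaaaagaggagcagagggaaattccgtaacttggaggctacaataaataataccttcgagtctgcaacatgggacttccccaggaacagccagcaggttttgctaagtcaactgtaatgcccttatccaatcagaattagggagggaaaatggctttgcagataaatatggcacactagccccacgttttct
The NF-kB element was present on either strand before 9 of 29 (31%) of the NF-kB genes with a promoter in the table and before 176 of 27305 (0.645%) of all genes. Of the 9 members with a match 7 rose and 1 fell. The interferon element was present on either strand before 22 of 36 (61.1%) of the interferon genes described next and before 1014 of 27305 (3.71%) of all genes, and of the 22 members with a match 6 rose and 2 fell.

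Interferon genes rose in part, 15 of 52 with 3 lower (median log2 fold change 0.21). The RNA sensor genes IFIH1 (MDA5) and RIGI rose 1.73-fold and 1.36-fold. RIGI did not pass without overexpression 2 or empty vector 1 (adjusted p 0.106 to 0.111). The factors STAT2 and IRF5 rose 1.43-fold and 1.23-fold, whereas IRF7 and IRF9 had log2 differences of 0.31 and 0.32 (adjusted p = 0.0538 and 0.346). Of the effectors IFIT1 rose 1.93-fold, RSAD2 1.79-fold, XAF1 1.65-fold and the guanylate-binding protein GBP5 1.45-fold. ISG15, a ubiquitin-like modifier, had 3.52, 3.15 and 3.50 CPM in overexpressing cells, against 5.51, 5.04 and 4.65 CPM in empty vector cells. ISG15 and the tethering factor BST2 went the other way and were 1.50-fold and 1.40-fold lower. With empty vector 1 left out, 12 members rose and 2 fell.

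Antigen presentation genes rose in part. In MHC class II 6 of 14 genes rose: the activator CIITA (1.82-fold), its DNA-bound partners RFX5 and RFXAP (1.14-fold and 1.29-fold), the chain HLA-DRA (2.83-fold), the peptide loader HLA-DMB (1.80-fold) and the invariant chain CD74 (1.46-fold). CD74 had 123, 113 and 113 CPM in overexpressing cells, against 73.7, 80.1 and 85.2 CPM in empty vector cells, and the groups did not overlap. RFX5 did not pass without overexpression 1, overexpression 2, overexpression 3, empty vector 1 or empty vector 2 (adjusted p 0.0537 to 0.112). RFXAP did not pass without overexpression 3 (adjusted p = 0.0574). HLA-DRA was low, at 2.07 ± 0.162 CPM in overexpressing cells and 0.735 ± 0.295 CPM in empty vector cells. In MHC class I 6 of 16 rose, among them HLA-B (1.26-fold) and HLA-E (1.37-fold). The number that rose was 3 without overexpression 2, 3 without overexpression 3 and 3 without empty vector 1. With the 6 untreated libraries fitted alone 4 rose and 2 fell. HLA genes are polymorphic and near-identical in parts, so that reads can be shared between them.

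Chemokines and cytokines went both ways, with 7 of 37 higher and 7 lower, beside 14.9% and 13% over all genes tested. The number higher was 4 without overexpression 2, and the number lower 4 without overexpression 3 and 4 without empty vector 1. Beside CXCL10, CXCL11, which shares its receptor, rose 1.90-fold at 2.24 ± 0.351 and 1.18 ± 0.255 CPM in overexpressing and empty vector cells. IL18, a substrate of the inflammasome, had 46.5, 51.8 and 50.0 CPM in overexpressing cells, against 33.4, 35.6 and 40.6 CPM in empty vector cells, a 1.35-fold rise. CCL2, which attracts monocytes, had 4.87, 5.49 and 5.31 CPM in overexpressing cells, against 31.2, 9.15 and 5.81 CPM in empty vector cells. Empty vector 1 was far above the other empty vector libraries at CCL2, and the log2 fold change of -1.56 (a 2.95-fold fall) was -0.52 without it. CCL2 did not pass without overexpression 1 or empty vector 1 (adjusted p 0.0501 to 0.0532). TNF fell 1.42-fold and IL32 1.36-fold. IL1B and CXCL8, a pair of main inflammatory products of monocytes, had log2 differences of -0.14 and -0.26 (adjusted p = 0.537 and 0.458). Of 17 inflammasome genes 4 rose and 2 fell (1 without overexpression 2, overexpression 3, empty vector 1 or empty vector 2). P2RX7, through which extracellular ATP triggers the NLRP3 inflammasome, had 93.5, 94.2 and 90.2 CPM in overexpressing cells, against 30.3, 35.8 and 38.6 CPM in empty vector cells, and the sensor CARD8 rose 1.18-fold. The sensor gene MEFV fell 1.29-fold, and the caspase gene CASP1 had a log2 difference of -0.24 (adjusted p = 0.113).

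Genes that ERK signalling induces to restrain itself fell in 10 of 24 cases and rose in 1. SPRY4, a Sprouty repressor, had 3.37, 3.50 and 2.39 CPM in overexpressing cells, against 11.3, 9.04 and 7.32 CPM in empty vector cells. DUSP5, a nuclear ERK phosphatase, had 5.14, 5.50 and 5.04 CPM in overexpressing cells, against 10.1, 10.1 and 8.11 CPM in empty vector cells. They fell 2.99-fold and 1.81-fold, SPRY2 fell 1.35-fold and the factor ETV4 1.54-fold, whereas DUSP16, which acts on JNK and p38, rose 1.29-fold. ETV4 did not pass without overexpression 2, overexpression 3 or empty vector 1 (adjusted p 0.0732 to 0.118). The number that fell was 6 without overexpression 1, 4 without overexpression 2, 4 without overexpression 3, 6 without empty vector 1 and 6 without empty vector 2. FOSL1, an AP-1 subunit that follows ERK activity, fell 2.46-fold. The other immediate early genes were mixed: FOS rose 1.40-fold, SRF and JUND fell 1.29-fold and 1.24-fold, and EGR1 had a log2 difference of 0.89 (adjusted p = 0.184). EGR1 passed without empty vector 1 (log2 difference 2.17, adjusted p = 3.84e-05).

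ID proteins hold back basic helix-loop-helix factors and are direct targets of BMP signalling. ID1 had 2.84, 2.29 and 2.88 CPM in overexpressing cells, against 7.26, 8.06 and 6.76 CPM in empty vector cells. ID3 had 3.68, 4.55 and 3.69 CPM in overexpressing cells, against 10.4, 11.1 and 10.3 CPM in empty vector cells. They fell 2.76-fold and 2.67-fold, without overlap between the groups. ID2 had a log2 difference of 0.25 (adjusted p = 0.0932). ID2 passed without empty vector 1 (log2 difference 0.38, adjusted p = 0.00902). SMAD6 and SMAD7, the inhibitory SMADs induced by the same signal, fell 1.50-fold and 1.28-fold, and so did the coreceptor ENG (1.39-fold) and the decoy receptor BAMBI (1.43-fold). SMAD7 did not pass without overexpression 2 or empty vector 2 (adjusted p 0.0552 to 0.0588). SMAD9 and SMAD3 rose 1.60-fold and 1.25-fold. Of 28 genes of this list 4 rose (2 without overexpression 3) and 7 fell, beside 14.9% risen and 13% fallen over all genes tested. The median log2 fold change of the list was -0.0087, so the list as a whole did not shift.

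The myeloid identity genes went both ways, beside 14.9% risen and 13% fallen over all genes tested. Of 33 monocyte and macrophage genes 8 rose and 5 fell (3 without overexpression 2 or overexpression 3). P2RX7, described above, is among those that rose. The integrin ITGAL, the receptors CSF2RA and CSF3R and the Fc receptor FCGR1A rose 1.47-fold, 1.37-fold, 1.31-fold and 1.38-fold, while CD68, VCAN and the adaptor TYROBP fell 1.38-fold, 1.42-fold and 1.33-fold. Of 14 azurophil granule genes, which mark promyelocytes and are abundant in THP-1 cells, 7 fell and 1 rose (none without overexpression 1, overexpression 2, overexpression 3 or empty vector 2). The granule proteoglycan gene SRGN had 374, 418 and 427 CPM in overexpressing cells, against 701, 604 and 628 CPM in empty vector cells, and it was 1.59-fold lower. The eosinophil-type ribonuclease genes RNASE2 and RNASE3, which are similar in sequence and can share reads, fell 1.63-fold and 1.62-fold. MPO had a log2 difference of 0.37 (adjusted p = 0.0816). MPO passed without empty vector 1 (log2 difference 0.55, adjusted p = 0.0192). Of 30 factors that set myeloid identity 6 rose and 5 fell (3 without overexpression 2, overexpression 3 or empty vector 1 and 8 without empty vector 3). Among them HOXA9, RUNX2, ETS2 and PBX3 rose 1.21-fold, 1.44-fold, 1.20-fold and 1.22-fold and CEBPA fell 1.22-fold, while SPI1 (PU.1) had a log2 difference of -0.12 (adjusted p = 0.0824). SPI1 passed without empty vector 3 (log2 difference -0.17, adjusted p = 0.0202).

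Genes typical of other cells also moved. GZMA, a granule protease of killer lymphocytes, had 2.45, 2.40 and 1.90 CPM in overexpressing cells, against 11.3, 8.46 and 7.57 CPM in empty vector cells. It was 4.04-fold lower, with the overexpression libraries close together. Of the 6 lymphoid markers tested NKG7 and CD79A fell 1.27-fold and 1.31-fold, and the 8 markers of the list in the table summed to 67.7 to 76.5 CPM in overexpressing cells and 82.3 to 96.3 CPM in empty vector cells. CD79A did not pass without overexpression 2 or overexpression 3 (adjusted p 0.051 to 0.0559). MS4A1 had no count. The mast-cell factor GATA2 fell 1.60-fold, while the tryptase genes TPSB2 and TPSAB1, which are near-identical, rose 1.38-fold and 1.24-fold. Of 11 epithelial markers tested 5 rose (3 without empty vector 1) and none fell. KRT16 had 8.27, 8.15 and 7.63 CPM in overexpressing cells, against 1.23, 1.69 and 2.34 CPM in empty vector cells. KRT17, a keratin of the same group, had 6.36, 6.54 and 5.76 CPM in overexpressing cells, against 1.92, 1.71 and 2.83 CPM in empty vector cells. The groups did not overlap in either gene. KRT14, CLDN7 and ELF3 rose 2.21-fold, 2.37-fold and 1.53-fold. CLDN7 did not pass without empty vector 1 (adjusted p = 0.05). ELF3 did not pass without overexpression 1, overexpression 2, empty vector 1 or empty vector 2 (adjusted p 0.0654 to 0.134). The 15 epithelial markers in the table summed to 22.8 to 23.9 CPM in overexpressing cells and 7.20 to 12.2 CPM in empty vector cells. KRT19 had no count, and KRT8, KRT18 and CDH1 were too low to test. Whether other cells gave these reads was not tested.

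Genes of the ribosome went in opposite directions by role. Of 77 cytosolic ribosomal protein genes 40 rose and none fell, by small amounts: the median log2 fold change was 0.15, and RPL15 and RPL9 rose most, 1.23-fold and 1.24-fold. The number that rose was 17 without overexpression 2, 24 without empty vector 1 and 21 without empty vector 2, and 23 when the 6 untreated libraries were fitted alone. Of 46 genes for the making of ribosomes in the nucleolus 27 fell and 1 rose, with NOP16 1.62-fold, RRS1 1.40-fold and POLR1A, the largest subunit of RNA polymerase I, 1.32-fold lower. The number that fell was 16 without overexpression 2, 14 without overexpression 3 and 14 without empty vector 1. Their median log2 fold change was -0.15 without empty vector 1, against -0.26 with it. Translation factors went both ways: of 43 tested 13 rose and 14 fell. EIF1, EEF1A1, EEF2 and the eIF3 subunits EIF3L, EIF3H, EIF3F and EIF3E rose, by up to 1.49-fold (EIF1), while EIF4G1 and EIF5 fell 1.38-fold and 1.26-fold. The number of translation factors that fell was 6 without overexpression 2, 6 without overexpression 3 and 7 without empty vector 1.

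Subunits of the respiratory chain fell in 31 of 67 nuclear genes and rose in 1. The largest falls among those with the smallest p were in NDUFB2 (1.44-fold), ATP5MF (1.39-fold) and NDUFS5 (1.38-fold). Of the 13 genes encoded in mitochondria MT-CYB, MT-ND1 and MT-ND2 fell 1.60-fold, 1.37-fold and 1.28-fold. MT-CYB had 1902, 1874 and 1825 CPM in overexpressing cells, against 2422, 3489 and 3048 CPM in empty vector cells. Lysosomal genes went both ways, with 15 of 32 lower and 7 higher: CTSA and LAMP1 fell 1.72-fold and 1.52-fold, and GAA and CTSS rose 1.31-fold and 1.19-fold. The number higher was 4 without overexpression 2.

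The title of the study names chemoresistance, and genes that handle cytarabine and other drugs were therefore listed. Of 15 cytarabine genes 3 rose (5 without overexpression 1) and 4 fell, beside 14.9% risen and 13% fallen over all genes tested. DCK, the kinase that activates the drug, had 87.5, 106 and 109 CPM in overexpressing cells, against 85.8, 86.2 and 92.3 CPM in empty vector cells. The groups overlapped, with a log2 difference of 0.20 (95% interval 0.057 to 0.34, adjusted p = 0.0553). The 95% intervals of DCK and of the BCL2 family use a normal quantile and the SE of the fit. They are not adjusted for the number of genes tested and are narrower than the test itself would give. DCK passed without overexpression 1 (log2 difference 0.29, adjusted p = 0.00277) and empty vector 3 (log2 difference 0.23, adjusted p = 0.0409). The importer SLC29A1 fell 1.26-fold, the inactivating deaminase CDA fell 1.31-fold, and SAMHD1, which cleaves the active triphosphate, rose 1.15-fold. NME1, a nucleotide kinase, fell 1.63-fold and the nucleotidase NT5C3A rose 1.38-fold. Of 26 ABC transporters 2 rose (1 without overexpression 2 or empty vector 1 and 4 without empty vector 3) and 3 fell. The exporter ABCC1 had a log2 difference of 0.11 (adjusted p = 0.293). None of the 5 survival members of the BCL2 family passed: BCL2 had a log2 difference of 0.10 (95% interval -0.026 to 0.23), MCL1 of -0.12 (-0.23 to 0.0011) and BCL2L1 of -0.026 (-0.16 to 0.10). MCL1 passed without empty vector 3 (log2 difference -0.17, adjusted p = 0.0425). Of 9 death members BMF and BBC3 (PUMA) rose 1.87-fold and 1.48-fold and BAK1, BIK and BAX fell 1.32-fold, 1.52-fold and 1.19-fold.

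Proliferation genes moved by small amounts, and over all genes tested 14.9% rose and 13% fell. Of 36 DNA replication genes 10 fell, among them the flap nuclease FEN1 (1.42-fold), and 1, the licensing factor CDT1, rose (1.28-fold); 2 rose without overexpression 1 and 3 without empty vector 1. The number that fell was 5 without overexpression 1, 4 without overexpression 2, 5 without overexpression 3 and 2 without empty vector 1. Of 34 mitotic genes 6 fell, CDC20 by 1.37-fold, and CENPE rose 1.26-fold. Of 18 cell cycle inhibitors and D cyclins 4 rose and 2 fell (1 without overexpression 1, overexpression 2, overexpression 3 or empty vector 2). BTG1, RB1, GADD45A and CDKN1B, which hold the cycle back, rose 1.39-fold, 1.25-fold, 1.35-fold and 1.22-fold, while the cyclin CCND3 fell 1.36-fold. CDKN1A had a log2 difference of -0.23 (adjusted p = 0.343). Of 31 Wnt genes, the pathway at which Adavivint is aimed, 1 rose (2 without overexpression 1) and 3 fell (1 without empty vector 2). The target AXIN2 had a log2 difference of -0.55 (adjusted p = 0.329) and beta-catenin (CTNNB1) of -0.08 (adjusted p = 0.22).

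Most of these changes did not pass when the same vectors were compared under Adavivint. That contrast shares no library with the untreated one, but both use the same estimate of the spread. Under the drug 569 genes were higher and 740 lower with overexpression, 3.69% and 4.8% of the genes tested. Of the 2297 genes that rose without drug 46.9% had the same sign under it, and 153 also passed as higher while 132 passed as lower. Of the 2010 that fell 53.8% had the same sign, and 142 passed as lower while 84 passed as higher. The difference between the effects passed for 1239 genes in which the effect was more positive under the drug and for 1729 in which it was more negative, 8.04% and 11.2% of the genes tested. The number of genes that passed under the drug, 1309, was 502 to 775 when 1 of overexpression 1, 2 or 3 or empty vector 1 or 2 under the drug was left out, and 2000 without the untreated empty vector 1. The number in which the difference passed, 2968, was 1885 without the untreated overexpression 2. With library totals in place of scaling factors 393 genes were higher and 1555 lower under the drug, and the difference was positive for 961 genes and negative for 2379. S100A9 itself was higher in both states, by 2.94 on the log2 scale under the drug and 2.13 without it.

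The gene groups differed accordingly. In the ATF4 list the median log2 fold change was 0.012 under the drug and 0.43 without it, and the difference passed as negative for 16 of 28 genes. ASNS had a log2 fold change of -0.089 under the drug and 1.27 without it (difference -1.36, adjusted p = 8.8e-06). Heat shock genes had medians of 0.028 under the drug and -0.24 without it, with a positive difference for 20 of 47 genes. HSPA8 had a log2 fold change of 0.19 under the drug and -1.53 without it (difference 1.71, adjusted p = 0.000989). The medians under the drug and without it were -0.17 and -0.43 for cholesterol genes, -0.019 and 0.17 for NF-kB genes and 0.063 and 0.21 for interferon genes. Ribosomal protein genes kept the sign of their median, 0.25 under the drug and 0.15 without it, and 61 of 77 passed as higher under the drug. Mitotic genes passed as higher under the drug in 25 of 34 cases, against 1 that rose and 6 that fell without it.

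**Figure D5:**
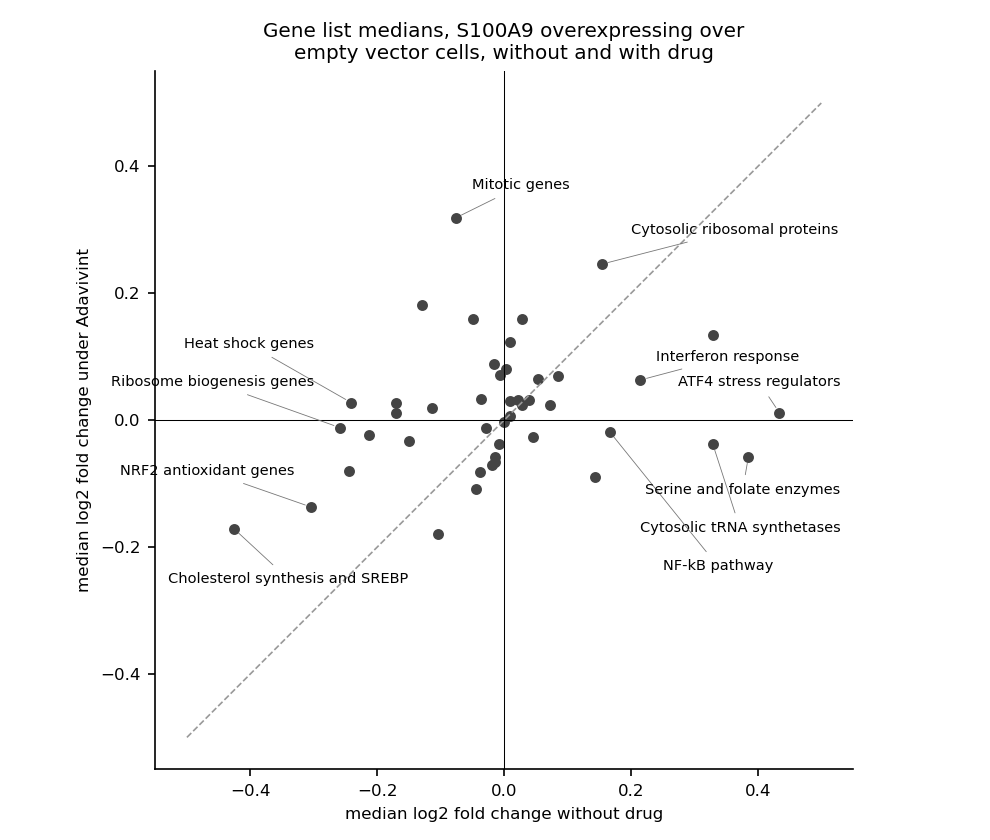
Median log2 fold change of each gene list (overexpressing over empty vector cells) under 1 µM Adavivint on the y axis against the same without drug on the x axis, with the line of equal effects dashed. The ATF4 list lies at 0.012 under the drug and 0.43 without it, and the heat shock list at 0.028 under the drug and -0.24 without it.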

How the data were processed

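RNA-seq was examined in 12 of the 18 libraries, THP-1 cells with the S100A9 or the empty vector, without drug and under Adavivint (3 libraries each). The authors deposited raw read counts per gene for 18670 genes, and HISAT2 2.0.4 is named in the submitters' processing notes. The counter, the annotation and build and the setting of strand were not given in the sources used here, so reads of a gene and of an overlapping, antisense or near-identical one may not be told apart. Symbols were found for 18642 genes by Ensembl ID in a gene name table, and positions are from GENCODE 29.

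Counts were fitted with edgeR 4.0.16 (R 4.3.3, limma 3.58.1): genes kept by filterByExpr (15403), TMM scaling, one mean per group, quasi-likelihood tests of the overexpression effect without drug, of the same effect under the drug, and of the difference between both (interaction), with Benjamini-Hochberg adjustment over all genes tested. The 4 groups share 1 estimate of the spread (8 residual degrees of freedom). The 6 untreated libraries alone leave 4, and the same test then gave larger adjusted p-values. They were 0.000146 against 1.45e-07 for ASNS, 0.00211 against 3.2e-05 for S100A9 and 0.00366 against 0.000113 for HSPA8. CPM values use the scaled totals; errors are SDs over 3 libraries. The fit was tested on simulated counts with known changes. It found 67 of 100 changes of 1.5-fold and 78 of 100 changes of 2-fold, and it called 6 unchanged genes. Replicate pairs differed by more than counting noise (chi-square per degree of freedom 7.18 to 37.2), so none was taken for a library deposited again. The groups were not alike in this: untreated empty vector pairs had 12.3 to 37.2 and untreated overexpression pairs 7.18 to 15.6. Pairs under the drug had 8.43 to 11.8.

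Genes named as largest were the 15 higher and 15 lower genes with the largest log2 fold change among those with adjusted p below 0.05, at least 5 CPM in the higher group, no overlap between the groups and a gene symbol, leaving out clone, locus and readthrough names. Of each gene list up to 6 members with the smallest p were eligible, besides its regulators and any member needed to account for the list, and the 5 largest interactions each way under the same level. The comparison, the lists and the rules were chosen with earlier results of these data known. Promoters are from RefSeq (GRCh38.p14). Alternatives were the 6 untreated libraries alone, DESeq2 (1.42.0) and its size factors, library totals, no filter, a filter of 1 CPM in 3 libraries, robust dispersions, a replicate block and leaving out each library. A fit of the 6 untreated libraries without empty vector 1 was added after seeing the data. Some genes are not reported here by name, though counts over all genes and lists include them.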

Additional observations from a re-analysis of the deposited data

Results flagged for a closer look

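The results given here were singled out because the effect of S100A9 overexpression differed between cells under Adavivint and untreated cells by the interaction test of edgeR (adjusted over 15403 genes). No group had enough libraries for a test of single outlying samples. The difference, effect under the drug minus effect without it, was positive for 1239 genes and negative for 1729.

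On the positive side GZMA had the largest difference by the rule, 2.65 on the log2 scale (adjusted p = 0.000185), with a log2 fold change of 0.63 under the drug (adjusted p = 0.0813) and -2.02 without it. ID3 differed by 2.04 (adjusted p = 0.00182), from levels under the drug of 0.336 CPM in overexpressing and 0.217 CPM in empty vector cells. HSPA8 differed by 1.71 (adjusted p = 0.000989), and FOSL1 by 1.65 (adjusted p = 0.0074), with log2 fold changes of 0.35 under the drug and -1.30 without it. MATR3, a nuclear matrix protein that binds RNA, differed by 1.93 (adjusted p = 0.0182) at 1 of the 2 Ensembl genes that carry this symbol (ENSG00000015479). That gene had 34.3, 75.2 and 62.3 CPM in untreated overexpressing cells, against 204, 70.9 and 144 CPM in untreated empty vector cells. The other MATR3 gene (ENSG00000280987) had 388, 393 and 407 CPM in overexpressing cells, against 297, 420 and 308 CPM in empty vector cells, a log2 difference of 0.21 (adjusted p = 0.363), and reads may be shared between both.

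On the negative side KIAA0753, a centriolar protein gene, differed by -2.90 (adjusted p = 0.0407), with log2 differences of -2.49 under the drug (adjusted p = 0.0485) and 0.42 without it (adjusted p = 0.622). RIC3 differed by -2.32 (adjusted p = 0.00182), KRT16 by -1.90 (adjusted p = 0.00262) and MYO3B by -1.72 (adjusted p = 0.0184); each rose without drug, and none passed under it.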

How the results depend on the processing

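The number of genes that changed without drug, 4307, was 3303 to 4927 over the alternatives that kept all libraries. It was 3540 with the 6 untreated libraries alone (of which 46.9% were higher, against 53.3%), 4927 with DESeq2 and 4356 with library totals. Leaving out 1 untreated library gave 2735 (without overexpression 2; 2690 of the 4307 were kept) to 4983 (without empty vector 3), and the 6 untreated libraries without empty vector 1 gave 3128. The number that passed under Adavivint, 1309, was 2026 with DESeq2 and 502 to 2000 with 1 library left out. With library totals it was 1948, of which 393 were higher, against 569 of 1309. The number whose effect differed with the drug, 2968, was 3340 with library totals, 961 of them positive against 1239, and 1885 to 3724 with 1 library left out. Same-numbered libraries did not deviate together (correlations -0.0131 to 0.0415 between the untreated groups), so the numbers were not taken as pairs; a replicate block gave 3864 genes, and 3303 with the 6 untreated libraries alone, 982 under the drug and 2477 for the difference. Untreated libraries enter the contrast under the drug only through the shared fit, in its filter, scaling and spread. Why these counts moved was not tested.

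Of 254 named genes that passed, 233 passed in each fit without 1 untreated library and 231 in each other alternative, and none changed sign. GDF15 was too low to test in some of these alternatives and is counted by the others. With the 6 untreated libraries alone 11 did not pass (AGER, ATF3, CCL2, EIF2AK2, ELF3, FTH1, LPAR4, RFX5, S100A8, SREBF1 and TIRAP, edgeR adjusted p 0.0523 to 0.137); a replicate block with all libraries ended the calls of RFX5 and TIRAP. Heat shock, NRF2, MAPK feedback, ribosome biogenesis and nuclear respiratory chain genes that rose, 0 or 1 per list, were 0 to 2 with 1 untreated library left out, and mitochondrial respiratory chain genes that fell, 3, were 5 without empty vector 3. Among named genes that did not pass, CASP1, DCK, EIF2AK1, HSF1, IRF7 and SPI1 passed with DESeq2 (adjusted p 0.0333 to 0.0486), and DCK, ID2 and IRF7 with library totals (0.0434 to 0.0486). Of 35 named genes that did not pass, 8 changed sign in an alternative, and the cause was not tested. With 1 untreated library left out their log2 differences ran from -0.102 to 0.052 for BCL2L1, -0.418 to 0.21 for CD14, -0.484 to 0.205 for CXCL8, -0.00747 to 0.0546 for EIF2AK4, -0.0438 to 0.64 for KIAA0753, -0.101 to 0.0287 for MTHFD1, -0.00939 to 0.0317 for SREBF2 and -0.26 to 0.0659 for XBP1. With the 6 untreated libraries alone and without empty vector 1 they were 0.0268 for BCL2L1, 0.179 for CXCL8, -0.0331 for EIF2AK4, 0.00323 for MTHFD1 and 0.0406 for XBP1. SREBF2 was at -0.00553 with the 6 untreated libraries alone and at -0.00587 with a replicate block added. Depth limits low genes: S100A8 rests on 14 to 65 counts per library, and S100A12 could not be tested. With 3 libraries per group, changes under 1.5-fold that did not pass are not shown to be absent.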

Other observations

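Over all genes tested 28% changed without drug, beside which 4 further gene lists are given. Of 25 integrin and adhesion genes 5 rose (2 without overexpression 2, and 3 without overexpression 3 or empty vector 1 or 2) and 2 fell (1 without overexpression 2 or 3). ITGA5, the fibronectin receptor chain, was 1.36-fold lower, at 188 ± 4.99 CPM in overexpressing cells and 254 ± 17.1 CPM in empty vector cells. Of 21 nucleotide synthesis genes 1 rose (none without overexpression 1 or 3 or empty vector 2, and 2 without empty vector 3) and 4 fell (2 without overexpression 2 or 3 or empty vector 1). CTPS1, which makes CTP, was 1.24-fold lower, at 142 ± 0.355 CPM in overexpressing cells and 176 ± 20.6 CPM in empty vector cells. Of 11 genes of the MYC network 2 rose (1 without overexpression 2 or 3 or empty vector 1 or 2) and 1 fell (none without overexpression 2 or 3 or empty vector 2), and of 9 RGS genes, which shorten G protein signals, RGS10 rose 1.21-fold and RGS19 fell 1.29-fold.

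Some of the large fold changes belonged to names that join neighbouring genes, which share reads with both partners. The readthrough ATP6V1G2-DDX39B had 89.4, 54.1 and 57.0 CPM in overexpressing cells, against 4.13, 6.35 and 6.12 CPM in empty vector cells (log2 fold change 3.60, adjusted p = 3.18e-06), and 0.12 under the drug (adjusted p = 0.812). This gene was chosen after its values were seen.

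By chromosome, the share of tested genes that rose ran from 8.34% on chromosome 19 and 8.99% on chromosome 22 to 24.3% on chromosome 13 (263 genes), among the nuclear chromosomes. The share that fell ran from 7.57% on chromosome 4 to 18.0% on chromosome 19. The median log2 difference per nuclear chromosome lay between -0.062 (chromosome 16) and 0.077 (chromosome 13). These are descriptions, with no test.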
